A study of Mus musculus with 5 samples.

Results

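Csf2, Il6 and Areg, genes for 3 secreted factors, were followed through the sub-cluster gene lists of mouse group 2 innate lymphoid cells (ILC2s). Their symbols were looked up in every deposited list, and they are 3 of the 688 genes that occur in any of the 262 lists. ILC2s came from large intestine (LI), small intestine (SI), lung, pancreas and bone marrow (BM) of male C57BL/6 mice aged 6 weeks, with no treatment given in the labels. ILC2s of LI, lung, pancreas and BM were sorted as lineage-negative ST2+CD25+ cells, whereas SI ILC2s were lineage-negative and CD45+ with low Thy1 and with KLRG1. Tissue of 10 mice was pooled. LI and SI were digested with collagenase for 90 min, lung for 60 min and pancreas for 30 min, whereas BM was flushed without digestion. LI, SI and lung were processed in a batch apart from that of pancreas and BM, so tissue, digestion and batch cannot be told apart.

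Each tissue had 1 single-cell library and the authors divided its cells into 6 to 8 sub-clusters, 36 in all. A 1 versus 1 list holds the genes that were higher in a sub-cluster than in a second sub-cluster of the same tissue (226 lists), and a list against all holds those higher than in the other sub-clusters of the tissue as a pool (36 lists), which need not be higher than in each of them. The lists give gene symbols without levels, folds, p-values or numbers of cells, which leaves their depth unknown and allowed no test between sub-clusters. The sub-clusters were formed on the expression of these same cells, so every listing is a description. A gene that is not listed for a pair was not shown to be equal in it. LI 0 below stands for sub-cluster 0 of LI, and so on.

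ILC2s are tissue-resident lymphocytes that respond to alarmins such as IL-33 and are best known for IL-5 and IL-13. Csf2 encodes GM-CSF, which promotes the growth and activation of myeloid cells. Il6 encodes interleukin-6, which acts through STAT3 on many cell types. Areg encodes amphiregulin, an EGF receptor ligand known for its part in tissue repair. Messenger RNAs of cytokines and growth factors often carry AU-rich elements in the 3′ untranslated region, sites through which proteins such as tristetraprolin (Zfp36) hasten their decay.

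The 3 genes lie on 2 chromosomes. In GENCODE release M21 on GRCm38 (mm10), Csf2 (ENSMUSG00000018916) is at chr11:54247271-54249667 on the minus strand with 4 exons. Il6 (ENSMUSG00000025746) is at chr5:30013114-30019981 on the plus strand, also with 4 exons. Areg (ENSMUSG00000029378) is at chr5:91139599-91148432 on the plus strand with 6 exons. The sequences below are the 30 bases of each 3′ untranslated region richest in the pentamer ATTTA. They are shown because the decay element is a sequence feature of the members that the lists did not use. They are written 5′ to 3′ on the strand of the gene, with every ATTTA in capitals, and lie at chr11:54247329-54247358 (Csf2), chr5:30019677-30019706 (Il6) and chr5:91148369-91148398 (Areg).
Csf2: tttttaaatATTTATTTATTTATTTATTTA
Il6: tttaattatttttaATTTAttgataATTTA
Areg: ataATTTATTTAatATTTAagtgttATTTA

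The stretch of Csf2 is 5 overlapping copies of ATTTA, that of Areg has 4 and that of Il6 has 2. Over its whole 3′ untranslated region of 317 bases Csf2 held 9 ATTTA, or 28.4 per 1000 bases. Areg held 4 in 253 bases (15.8 per 1000 bases) and Il6 held 10 in 1668 bases (6 per 1000 bases). Among 21021 coding genes the median was 1.24 per 1000 bases and 65.2% had at least 1 ATTTA, so the bare pentamer is common. The longer element TTATTTATT occurred 4 times in Csf2, 1 time in Areg and 0 times in Il6, against 7.66% of coding genes with at least 1 and 0.323% with as many as Csf2. The counts are those of the transcript with the longest 3′ untranslated region. They describe the reference sequence and say nothing about decay in these cells.

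The promoter windows of the 3 genes are shown because the genes listed beside Csf2 and Areg, described below, include members of the NF-kB, AP-1 and CREB families. The list against all that holds Il6 has 0 genes of these families. The windows run from 250 bases before to 50 after the start of the gene in RefSeq (GRCm38.p6), at chr5:30012864-30013163 for Il6 and chr5:91139349-91139648 for Areg, both on the plus strand, and at chr11:54249850-54250149 on the minus strand for Csf2. Capitals mark matches, on either strand, to 4 motifs. The letters searched for AP-1 were TGANTCA. Those for the cAMP response element (CRE) were TGACGTCA, which do not overlap a match to the others here. The NF-kB letters were GGGANTTTC and the letters for GATA factors were AGATAA.
Csf2: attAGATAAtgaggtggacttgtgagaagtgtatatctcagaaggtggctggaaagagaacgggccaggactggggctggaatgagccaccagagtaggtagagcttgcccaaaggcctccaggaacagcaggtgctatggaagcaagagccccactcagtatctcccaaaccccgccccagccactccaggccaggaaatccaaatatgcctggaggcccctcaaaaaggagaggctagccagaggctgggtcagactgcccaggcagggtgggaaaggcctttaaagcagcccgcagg
Il6: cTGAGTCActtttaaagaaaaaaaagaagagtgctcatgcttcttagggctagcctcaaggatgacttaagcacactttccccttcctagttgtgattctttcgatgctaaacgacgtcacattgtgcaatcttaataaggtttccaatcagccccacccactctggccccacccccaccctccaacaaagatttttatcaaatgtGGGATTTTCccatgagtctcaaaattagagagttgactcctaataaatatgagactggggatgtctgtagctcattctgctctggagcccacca
Areg: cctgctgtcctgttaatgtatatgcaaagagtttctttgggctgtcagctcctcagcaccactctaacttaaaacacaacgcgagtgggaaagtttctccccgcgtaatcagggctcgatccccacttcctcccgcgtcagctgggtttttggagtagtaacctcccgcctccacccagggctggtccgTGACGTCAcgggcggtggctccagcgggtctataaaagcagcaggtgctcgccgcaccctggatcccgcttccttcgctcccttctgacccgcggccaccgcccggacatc

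The Il6 window held 1 AP-1 and 1 NF-kB match, the Areg window held 1 CRE match, and the Csf2 window held 1 GATA match and 0 of the other 3 motifs. Of 32851 windows of the same length, 7.81% held the AP-1 letters, 1.11% the NF-kB letters, 1.79% the CRE letters and 11.2% the GATA letters. The RefSeq start of Csf2 lies 232 bases upstream of its start in GENCODE, so its window does not reach the GENCODE start. A match is a description of the letters, not a bound site.

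Csf2 was the most often listed of the 3 genes. It was in 32 of the 226 1 versus 1 lists (14.2%), in LI, SI, pancreas and lung. Only 20 of the 688 genes (2.91%, Csf2 included) were in as many, and the median gene was in 6. Areg was in 19 of the lists (8.41%), in the same 4 tissues, a number that 80 genes (11.6%) reached. Il6 was in 8 lists (3.54%), in LI and SI alone, and 244 genes (35.5%) were in as many. None of the 3 was in a list of BM, where the 56 lists of 1 versus 1 comparisons were short (median 8 genes).

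**Figure D1:**
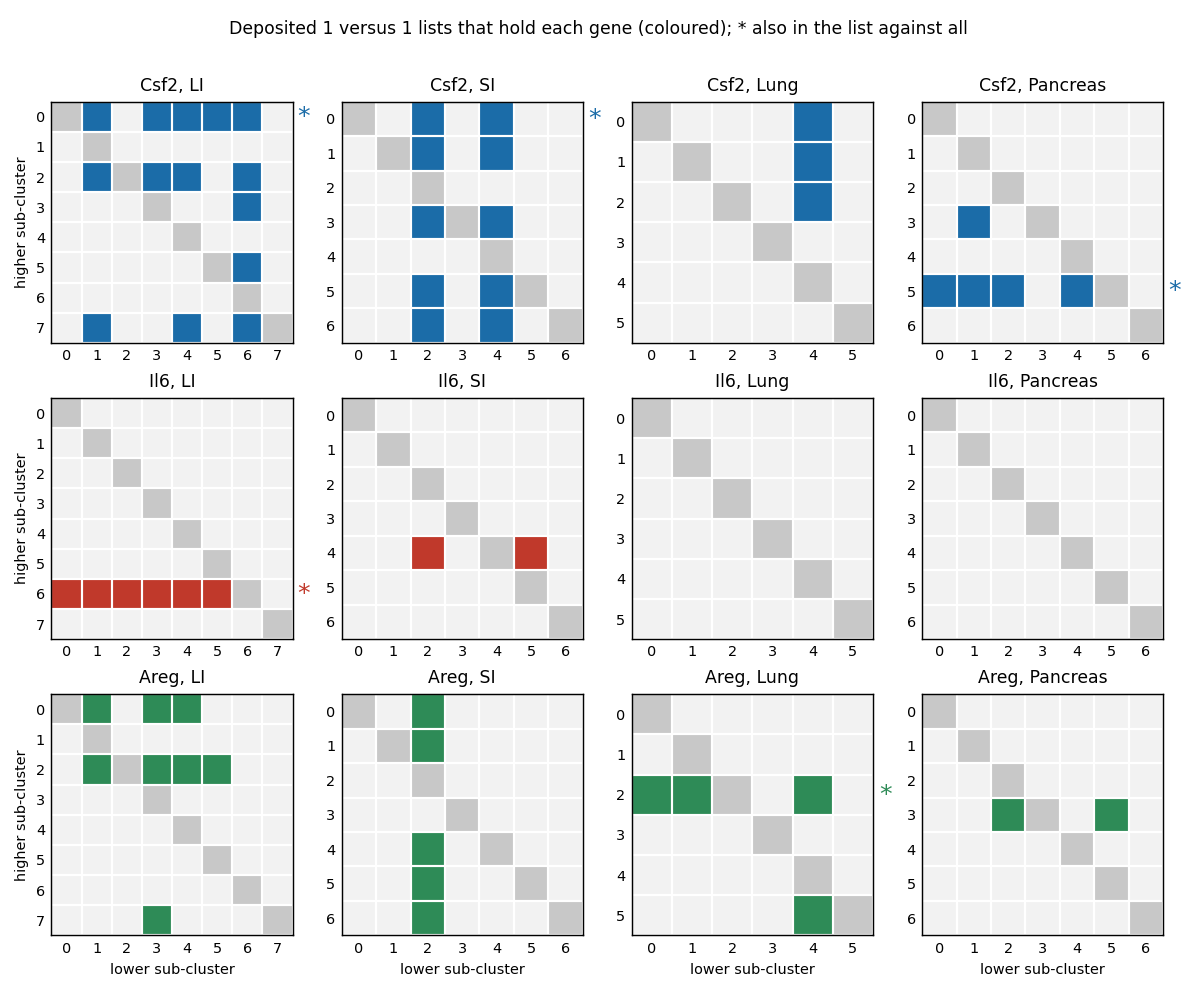
Deposited 1 versus 1 lists that hold Csf2 (top), Il6 (middle) or Areg (bottom) in LI, SI, lung and pancreas. A coloured square means that the gene was listed as higher in the sub-cluster of the row than in that of the column, grey squares are the diagonal, and an asterisk marks a list against all that holds the gene. In SI, Csf2 has 5 coloured squares in column 2 and 5 in column 4, whereas Il6 in LI has 6 coloured squares in row 6, all but that of LI 7.

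Csf2 was listed as higher in 14 of 56 LI lists (25%). Over all listed genes, a gene and LI list pair was filled in 6.08% of cases. LI 0 exceeded 5 of the 7 other sub-clusters (1, 3, 4, 5 and 6), LI 2 exceeded 4 (1, 3, 4 and 6) and LI 7 exceeded 3 (1, 4 and 6). No list placed any sub-cluster above LI 0, 2 or 7, and none ordered these 3 among themselves. LI 6 was at the other end, exceeded by LI 0, 2, 3, 5 and 7, and LI 1 and LI 4 were each exceeded by LI 0, 2 and 7. LI 3 and LI 5 stood between, each above LI 6 and below LI 0.

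In SI, all lists of Csf2 had SI 2 or SI 4 as the lower sub-cluster. SI 0, 1, 3, 5 and 6 were each higher than SI 2 and than SI 4, which accounts for all 10 of its 42 SI lists (23.8%, against 5.08% over all genes). No 1 versus 1 list ordered the 5 higher sub-clusters among themselves, or SI 2 and SI 4. Lung gave Csf2 in 3 of 30 lists (10%, against 3.24% over all genes), with lung 0, 1 and 2 each above lung 4. Pancreas gave it in 5 of 42 lists (11.9%, against 1.8%), with pancreas 5 above 0, 1, 2 and 4 and pancreas 3 above 1.

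The lists against all held Csf2 in LI 0, SI 0 and pancreas 5. In LI 0 it was the second of 39 genes (5.67% of the 688 genes are in that list). In pancreas 5 it was at place 8 of 20 (2.91%), and in SI 0 at place 20 of 27 (3.92%). Of the 688 genes, 46 (6.69%) were in at least 3 lists against all. LI 2, which exceeded nearly as many sub-clusters as LI 0, was not among them, and its list against all has only 2 genes. The sources used here do not say what the order within a list stands for. In the 1 versus 1 lists Csf2 had places from 1 to 50 (median 5), in lists of 11 to 171 genes. It came first in 7 of them, LI 0 over 4 and over 6, LI 2 over 4 and over 6, and SI 0, 3 and 5 over 4.

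Il6 was listed mainly for LI 6. That sub-cluster stood above LI 0, 1, 2, 3, 4 and 5, with LI 7 the exception, in 6 of 56 LI lists (10.7%, against 6.08% over all genes). The other 2 of the 8 lists were SI 4 over SI 2 and over SI 5, 4.76% of the SI lists, against 5.08% over all genes, so Il6 was listed in SI no more often than the average listed gene. The list against all of LI 6 held Il6 at place 8 of 50 (7.27% of the 688 genes), and no other list against all held it. Its places in the 1 versus 1 lists were 5 to 24 (median 11), and in SI 4 over 5 it was the last of 24 genes.

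Areg was listed as higher in 11 sub-clusters, fewer than Csf2 (15) and more than Il6 (2). In LI it was in 8 of 56 lists (14.3%, against 6.08% over all genes): LI 2 exceeded 1, 3, 4 and 5, LI 0 exceeded 1, 3 and 4, and LI 7 exceeded 3. In lung it was in 4 of 30 lists (13.3%, against 3.24%), with lung 2 above 0, 1 and 4 and lung 5 above 4. In pancreas it was in 2 of 42 lists (4.76%, against 1.8%), with pancreas 3 above 2 and 5. In SI it was in 5 of 42 lists (11.9%, against 5.08%), in all of which SI 2 was the lower sub-cluster (SI 0, 1, 4, 5 and 6 exceeded it). Lung 2 was the only sub-cluster with Areg in its list against all, at place 12 of 29 (4.22% of the 688 genes). Areg stood lower in its 1 versus 1 lists than Csf2, at places 5 to 69 (median 18) and first in none.

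**Figure D2:**
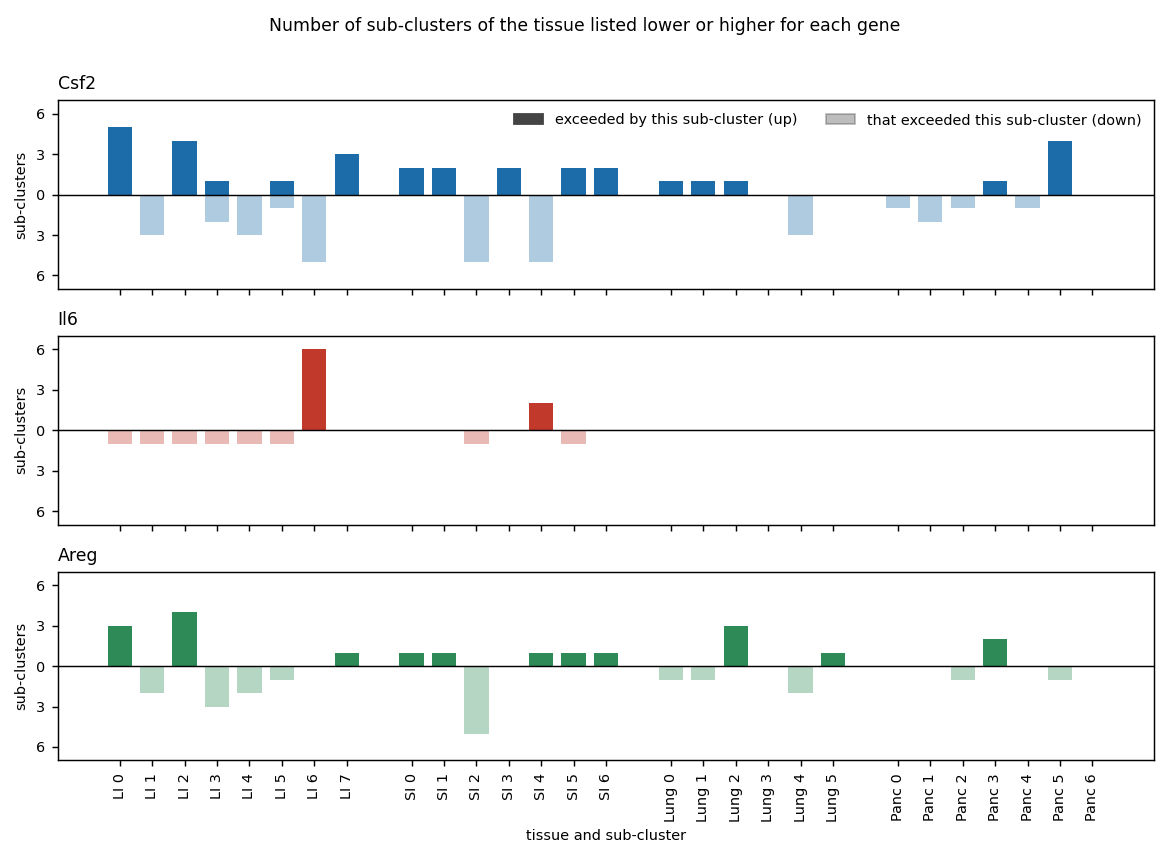
For each sub-cluster of LI, SI, lung and pancreas, the number of other sub-clusters that it exceeded (solid bars, upward) and the number that exceeded it (pale bars, downward) for Csf2, Il6 and Areg in the 1 versus 1 lists. LI 6 exceeded 6 sub-clusters for Il6 and was exceeded by 5 for Csf2, and SI 2 was exceeded by 5 for Csf2 and by 5 for Areg.

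The 3 genes were then set against each other over the same 226 lists, whose comparisons share cells within a tissue. Over all 226 lists, Csf2 was in 14.2% and Areg in 8.41%. Csf2 and Areg were listed together in 11 lists, which is 34.4% of those of Csf2 and 57.9% of those of Areg, and never in opposite directions. Of these, 6 were LI 0 or LI 2 over LI 1, 3 and 4. A further 4 were SI 0, 1, 5 and 6 over SI 2, and the last was lung 2 over lung 4. In pancreas, where Csf2 was in 5 of 42 lists and Areg in 2, the pair shared 0 lists. Csf2 marked pancreas 5 mainly, and pancreas 5 was below pancreas 3 for Areg.

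Csf2 and Il6 shared 0 lists. Csf2 was in 14.2% of all 226 lists and Il6 in only 8, so 0 shared lists is not far from the share over all lists. The 2 genes ran in opposite directions in 5 pairs of sub-clusters, 15.6% of the lists of Csf2 and 62.5% of those of Il6. Other genes ran opposite to Il6 more often, such as Txk in 8 of its 8 pairs and Odc1 in 7. LI 6 was higher for Il6 and lower for Csf2 than LI 0, 2, 3 and 5, and SI 4 was higher for Il6 and lower for Csf2 than SI 5. Il6 and Areg shared 1 list, SI 4 over SI 2, which is 12.5% of those of Il6 and 5.26% of those of Areg, with 0 in opposite directions. These shares are near those over all lists, 8.41% for Areg and 3.54% for Il6. LI 6 was in no list of Areg, as the higher or the lower sub-cluster.

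Likeness of listing was measured as the Jaccard index, the number of 1 versus 1 lists that 2 genes share over the number that hold either, among genes in at least 5 lists. For Csf2 the 5 highest were Gem, a small GTP-binding protein (0.432, 19 shared lists), Nfkbia, the inhibitor IkB-alpha (0.396, 19 lists), the immediate early gene Ier2 (0.39, 16 lists), Nfkbid, a nuclear IkB protein (0.381, 16 lists) and the stress gene Gadd45b (0.348, 16 lists). Nr4a1 had the same values as Gadd45b for Csf2 and came after it by the alphabet alone. For Areg they were the orphan nuclear receptor Nr4a1 (0.4, 14 lists), Nfkbid (0.364, 12 lists), Nfkbiz, another nuclear IkB protein (0.323, 10 lists), the NF-kB subunit Rel (0.296, 8 lists) and the activation marker Cd83 (0.286, 6 lists). Csf2 itself came next for Areg (0.275, 11 lists).

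For Il6 the most similar gene was Tor1aip2, which encodes an interactor of torsin (0.778, 7 shared lists). Carnmt1, the cytokine gene Il17f, the transcription factor gene Irf4 and Mtmr10 followed at 0.75, each with 6 shared lists, and at least 3 more genes had the same index. None of the 5 genes most like Il6 was among the 5 most like Csf2 or Areg, whereas Nfkbid was among the 5 of both Csf2 and Areg, as Nr4a1 would be but for the tie. Il6 had only 8 lists, so the index of a gene moves in large steps there.

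**Figure D3:**
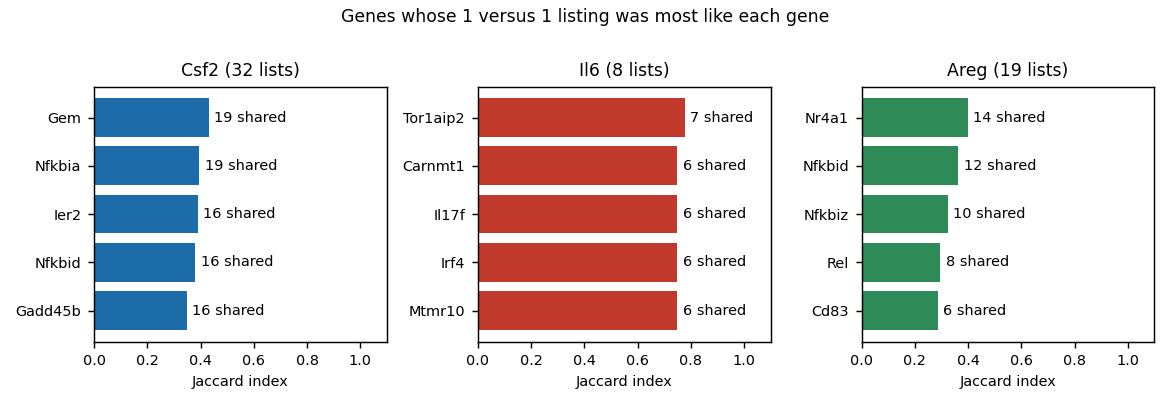
The 5 genes with the highest Jaccard index to Csf2 (left), Il6 (middle) and Areg (right) over the 226 1 versus 1 lists, with the number of shared lists beside each bar. The bars for Il6 are at 0.75 and above but rest on 6 or 7 shared lists, and those of Csf2 and Areg are at 0.432 and below with 6 to 19 shared lists.

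The lists against all that hold a member were read for groups of genes. The list of LI 0 opened with Ifrd1, Csf2 and Cwc25 and that of SI 0 with Gadd45b, Zfp36 and Hes1. Of 14 NF-kB genes looked for, 11 were in some list. LI 0 held 4 of them, Tnfaip3, Gadd45b, Birc3 and Nfkbia, and SI 0 held 5, Gadd45b, Nfkbia, Tnfaip3, Nfkbid and Nfkbiz. NF-kB genes were thus 10.3% of the LI 0 list and 18.5% of the SI 0 list, against 1.6% of all listed genes. Tnfaip3 encodes A20 which, like IkB-alpha, restrains NF-kB signalling. Genes of the AP-1 and CREB families stood beside Csf2 too. LI 0 held Junb, Atf3 and Maff, and SI 0 held these 3 and Fosl2. That is 7.69% of the LI 0 list and 14.8% of the SI 0 list, against 1.6% of all listed genes. The calcium-responsive genes Nr4a1, Egr1 and Nr4a2 were in LI 0, and Nr4a1 and Bhlhe40 in SI 0. Genes of this group were 7.69% of LI 0 and 7.41% of SI 0, against 1.16% of all listed genes. None of these shares was tested. Zfp36, whose product binds AU-rich elements of the kind printed above, was in both lists.

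The list of pancreas 5 held Csf2 in other company. It opened with Capg, an actin-capping protein, Tnfsf8, the ligand of CD30, and Anxa2, and it had 0 of the NF-kB genes. Ccl5, a chemokine that natural killer cells and T cells make in quantity, was in it and in 4 of the 5 pancreas 1 versus 1 lists of Csf2. Cd3g, which encodes a chain of the T cell receptor complex, was in it as well. Of the other natural killer and ILC1 markers looked for, Tbx21, Ifng, Klrb1c, Ncr1, Eomes and Gzmb were in no list, and of the T cell markers Cd3e, Cd3d, Cd8a, Cd4 and Trac were in no list. Per the study's methods, clusters with Cd28, Cd3e, Cd8a, Klrb1c, Tbx21 or Ifng as signature genes had been filtered out. CD3+ cells were gated out of the sort. Cd28 was nonetheless in the list against all of LI 2 and in 9 1 versus 1 lists of LI, so the filter did not remove every listing of its genes. The absence of Cd3e, Cd8a, Klrb1c, Tbx21 and Ifng cannot be told apart from an effect of those steps. The part of other cells in this listing was not tested.

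The list of LI 6, which held Il6, opened with Tnfsf8, Il17a and 1700061F12Rik. It had 4 of the other genes looked for as cytokines and growth factors, Tnfsf8, Il17a, Il17f and Il13. Genes of this group were 8% of the list, against 1.45% of all listed genes. Il17a was in all 8 of the 1 versus 1 lists with Il6 and Il13 in 7 of the 8, against 4.87% and 7.96% of all 226 lists. Irf4 and Bhlhe40, transcription factors of activated lymphocytes, were in the list of LI 6 too, as was Spry1, an inhibitor of receptor tyrosine kinase signalling. The study reports Il17a as a feature of Lgals1-high sub-clusters of intestinal ILC2s. Il17a and Il17f are used as markers of ILC3s, whereas Il22, Ccr6 and Il23r, further markers of these cells, were in no list. Kit, looked for as a marker of mast cells and basophils, was in 2 lists, LI 6 over 0 and over 5, both with Il6. The study had filtered out clusters by Il22 and Ccr6, among other ILC3 markers, so their absence was set by that filter. Cd3g was in the list against all of LI 6 and in 5 of the 8 lists with Il6, whereas Cd28, the other T cell marker in some list, was in 0 of the 8 and ran opposite to Il6 in 3 pairs. What share of this listing such cells could carry was not tested.

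The list of lung 2, which held Areg, opened with Odc1, Hilpda and Calca. Odc1 encodes the first enzyme of polyamine synthesis and Calca the neuropeptide CGRP. With Crem, a cAMP-responsive transcription factor, and Ramp3, a receptor component, the list held 4 of the 14 genes looked for around cAMP and CGRP. Of the 14, 8 were in some list. Genes of this group were 13.8% of the lung 2 list, against 1.16% of all listed genes. The ILC2 genes Icos, Hs3st1 and Rora were in the list of lung 2, and so were Rel and Maff. Calca was in 3 of the 4 lung lists of Areg and in both pancreas lists, but in SI it was higher in SI 2 in 4 of the 5 pairs in which Areg was lower there. In LI, Calca was with Areg in 1 list and opposite to it in 1 pair. For Csf2, too, Calca ran the opposite way in 6 of 10 SI pairs, and also in 4 of 14 LI pairs and 1 of 5 pancreas pairs. It ran the same way as Csf2 in 1 list each of LI, lung and pancreas.

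**Figure D4:**
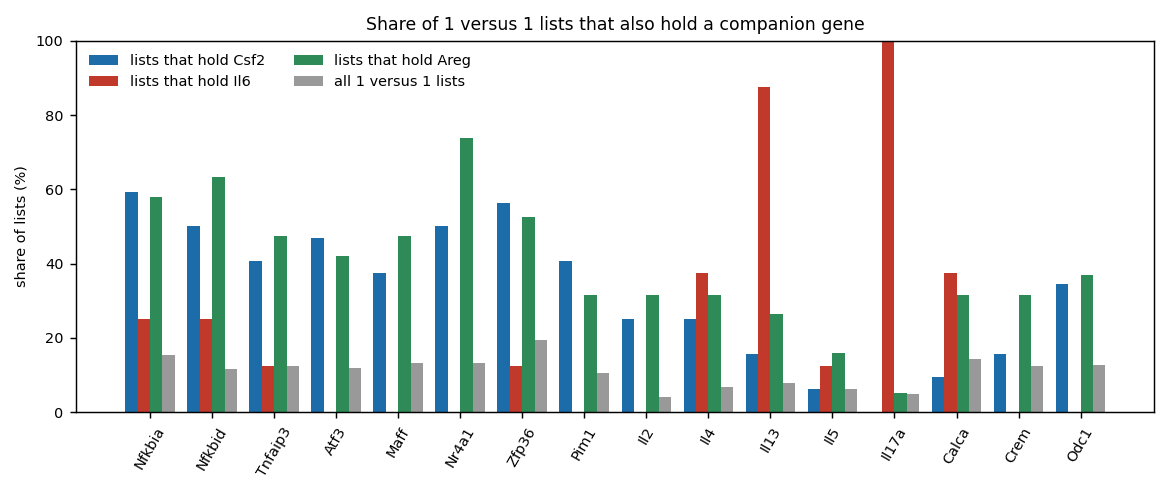
Share of the 1 versus 1 lists of Csf2 (32 lists), Il6 (8 lists) and Areg (19 lists) that also hold each of 16 companion genes, beside the share of all 226 lists (grey). The genes were picked from the pathway lists after their values were seen. Nfkbia was in 59.4% of the lists of Csf2 and 57.9% of those of Areg against 15.5% of all lists, and Il17a was in every list of Il6 and in 0 of those of Csf2.

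Companions were counted over the 1 versus 1 lists as well. These compare the same cells as the lists against all, so a recurrence is not separate support. Nfkbia was in 19 of the 32 lists of Csf2 (59.4%) and in 11 of the 19 of Areg (57.9%), against 15.5% of all lists. It was in 2 of the 8 lists of Il6 and ran opposite to Il6 in 2 others. Nr4a1 was in 14 of the 19 lists of Areg (73.7%) and in 16 of the 32 of Csf2 (50%), against 13.3% of all lists, and in 0 of those of Il6. Zfp36 was in 18 of the 32 lists of Csf2 (56.2%) and 10 of the 19 of Areg (52.6%), against 19.5% of all lists. These companions were absent from the 5 pancreas lists of Csf2 in the same direction, where Zfp36 ran opposite in 1 and Jun in 3. Longer lists hold more genes of every kind, and the shares were not adjusted for this. For its own correlation of genes in LI cells, the study removed clusters that it suspected enzymatic digestion had affected. The lists of all LI sub-clusters were used here, and the part of digestion in these listings was not tested.

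Among other cytokines, Il2 was in 8 of the 32 lists of Csf2 (25%) and 6 of the 19 of Areg (31.6%), of 9 lists that hold it in all (3.98%). Il4 was in 8, 6 and 3 lists of Csf2, Areg and Il6 (25%, 31.6% and 37.5%), of 15 in all (6.64%). Il13 was with Csf2 in 5 lists (15.6%, against 7.96% of all lists) and against it in 7. Il5, the hallmark cytokine of ILC2s, was with Csf2 in 2 lists and against it in 3. Its 2 lists are 6.25% of those of Csf2, near its 6.19% of all lists.

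Genes around the signalling of the 3 factors were looked for as well. Of 13 genes looked for around GM-CSF signalling, 5 were in some list (Jak2, Cish, Socs2, Pim1 and Il5), and Csf2ra, Csf2rb and Csf2rb2, which encode its receptor, were in none. The kinase gene Pim1 was in the list of SI 0 and in 13 of the 32 1 versus 1 lists of Csf2 (40.6%, against 10.6% of all lists). Of 13 genes around IL-6 signalling, Il6ra, Stat3 and Junb were in some list, and Il6st and Socs3 were in none. Of 18 genes around EGF receptor ligands and their shedding, Errfi1, Spry1 and Spry2 were in some list, and no other ligand of that family was. Heat shock genes, 12 of 14 of which were in some list, stood in 0 of the 5 lists against all that hold a member. They are 1.74% of all listed genes, and these 5 lists are short (20 to 50 genes). Heat shock genes were in 1 versus 1 lists of Csf2, however. Hspa1a was in 6 of the 32 (18.8%, against 10.6% of all lists) and opposite in 3 pairs. In SI it was in 5 of the 10 lists of Csf2 and opposite in 0. Hspa5 and Hspb1 were in 0 of the 32. Of 11 ILC2 markers looked for, 8 were in some list and Il1rl1, Il7r and Il17rb were in none, and the lists cannot show the level of such a gene. Endothelial, fibroblast, epithelial and B cell markers were in no list, and the 8 acinar markers, all listed, were in none of the 5. The study had filtered out clusters by B cell genes such as Cd79a and by the endothelial genes Thbd and Cd93. It also gated B220+ cells out of the sort, so the absence of B cell and endothelial markers cannot be told apart from an effect of those steps.

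Genes that ran opposite to the members were picked after their values were seen. Txk, a kinase of T cells and related lymphocytes, was higher in the other sub-cluster in 8 of the 8 pairs in which Il6 was listed, and Odc1 in 7 of the 8. Against Csf2 the most frequent were Calca and Lgals1, a galectin, each in 11 of 32 pairs. Against Areg, Jun and Klf6 were each opposite in 6 of 19 pairs (31.6%), although Jun was also in 9 lists with Areg. In all, Txk was in 13 of the 226 lists, Odc1 in 29, Calca in 32, Klf6 in 37, Lgals1 in 44 and Jun in 52 (23%). The 31.6% for Jun is not far from its share over all lists.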

How the data were processed

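Sorted ILC2s went into single-cell 3′ libraries, 1 per tissue, and the reads of several sequencing rounds were pooled by the authors. Cell Ranger, mm10, R version 3.6.1 and Seurat version 2 are named in the submitters' processing notes. Per the study's methods, low-quality cells were removed with scater, expression was log-normalised, cells were clustered per tissue with Seurat, and clusters of other cell types were filtered out, in more than 1 round for LI and pancreas. The sources used here do not give the threshold for a sub-cluster marker. Nor do they say how doublets were treated, and the lists allow no check for them.

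The tables deposited by the authors hold gene symbols alone, the outcome of their own comparisons, with no value to test. All 262 columns were read in Python 3.11.15 (226 of 1 versus 1 comparisons, 36 against all). The 23 columns with only NA were taken as empty, and spaces were trimmed from 1 symbol. No replicate exists, so no p-value or interval was computed. The background was the 688 genes in any list, since not all genes tested are named. Likeness was the Jaccard index over the 1 versus 1 lists, tested on simulated lists first. Named genes were the members, the 5 most alike each, the first 3 of each list against all that holds a member, and up to 4 of each of 12 pathway and 11 cell type lists in such lists, and further genes of those lists are named to complete a count. Txk, Lgals1, Klf6, Kit and the heat shock genes named are outside this rule and were named after their values were seen. The members and lists were chosen with earlier results of these data known. Motifs were counted in GENCODE M21 transcripts and RefSeq promoters of the same assembly. Figures were drawn with matplotlib 3.10.9. Alternatives were other definitions of a listing, other measures of likeness, other transcripts and leaving out each tissue.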

Additional observations from a re-analysis of the deposited data

How the results depend on the processing

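The number of sub-clusters that mark a gene depended most on the definition. Counting any sub-cluster with the gene in at least 1 of its 1 versus 1 lists gave 15 for Csf2, 2 for Il6 and 11 for Areg, against 3, 1 and 1 by the lists against all. Requiring every 1 versus 1 list gave 0 for each, and at least 50% of them gave 2 for Areg (LI 2 and lung 2). For Csf2 at least 50% gave 3 again, but of another set: LI 0, LI 2 and pancreas 5. SI 0, which exceeded 2 of 6 sub-clusters, dropped out. Matching without regard to case and with synonyms changed none of the 3 counts. Leaving out a tissue gave 2 to 3 sub-clusters for Csf2, 0 to 1 for Il6 (0 without LI) and 0 to 1 for Areg (0 without lung). It gave 18 to 32 of the 1 versus 1 lists for Csf2, 2 to 8 for Il6 and 11 to 19 for Areg, lowest without LI each time. The lists shared by Csf2 and Areg numbered 5 to 11 (5 without LI, 7 without SI), those shared by Il6 and Areg 0 to 1 (0 without SI), and the opposite pairs of Csf2 and Il6 1 to 5 (1 without LI, an alternative chosen after seeing the data). Of the 5 genes most like each member, the Jaccard index over lists against all kept 1 for Csf2, 1 for Il6 and 0 for Areg, and overlap over the smaller count kept 0, 1 and 3. Taking genes in at least 10 lists kept 0 for Il6, 5 for Csf2 and 4 for Areg. The median over all coding transcripts gave 5 ATTTA for Il6, against 10. Of 87 alternative values, 63 stayed within 1.5 times of the reported count. Many of these could not move. No member was in a list of BM, and a shared or opposite count of 0 cannot rise when a tissue is left out. No paired analysis was possible because each tissue has 1 library. No depth is known, so a missing listing sets no upper limit on a gene's level.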
